A study of Homo sapiens with 12 samples.

Results

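The 10 genes described here encode the activin subunits INHBA and INHBB, the activin antagonists FST and FSTL3, the TGF-β ligands TGFB1, TGFB2 and TGFB3, the TGF-β-induced matrix protein TGFBI, and the signaling inhibitors SMAD7 and SKIL. They were selected by gene name from the 58735 genes of the deposited count table, at a time when measured values of these libraries were already known, and which values led to the choice was not recorded. Their levels are therefore given as a description, and an adjusted p printed for one of them, although it comes from a test across all genes, is not independent evidence. RNA was sequenced from tumor-associated macrophages (TAMs), here the human monocytic leukemia line THP-1 differentiated with phorbol 12-myristate 13-acetate (PMA), which had shared medium, through a Transwell insert, with the human pancreatic cancer line AsPC-1. In the control group (labelled NC) the AsPC-1 cells carried an empty lentiviral vector. In the OE-MMP28 group they carried a lentiviral MMP28 cDNA, which encodes a secreted matrix metalloproteinase. The anti-IL-8 and anti-VEGFA groups were OE-MMP28 cocultures that also received a neutralizing antibody against IL-8 or against VEGFA. Each of the 4 groups had 3 libraries. All cultures thus shared THP-1 cells, PMA and puromycin-selected AsPC-1 cells, no group with a control antibody or with vector cells plus antibody was among the samples, and whether the control libraries differ through MMP28 or through a batch of their own cannot be told apart. The labels do not say whether replicates were separate cultures, so p-values measure the spread between these libraries, which may be technical.

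Activin A is a dimer of the protein encoded by INHBA. It binds type II activin receptors, which recruit and phosphorylate the type I receptor ACVR1B, and the signal passes through SMAD2 and SMAD3, the same messengers that TGF-β uses through its own receptors. Follistatin (FST) and FSTL3 trap activin outside the cell, TGF-β is secreted in a latent form that must be released, and SMAD7 and SKIL are induced by the signal and restrain it. Activated macrophages are a known source of activin A, and TGF-β1 is a classic immunosuppressive product of TAMs.

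The RefSeq promoters of 4 of these genes are shown because they stand for both ends of the pathway, the 2 activin subunits as ligands and the 2 inhibitors that the signal induces. Each is the 250 bases before the RefSeq transcription start on GRCh38.p14, written 5′ to 3′ on the gene's strand. Capitals mark the SMAD box, CAGAC or its complement GTCTG.
INHBA: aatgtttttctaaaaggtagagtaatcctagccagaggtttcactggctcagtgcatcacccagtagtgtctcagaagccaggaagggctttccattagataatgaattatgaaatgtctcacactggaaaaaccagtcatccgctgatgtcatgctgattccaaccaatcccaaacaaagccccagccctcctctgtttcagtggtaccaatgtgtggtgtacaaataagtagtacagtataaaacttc
INHBB: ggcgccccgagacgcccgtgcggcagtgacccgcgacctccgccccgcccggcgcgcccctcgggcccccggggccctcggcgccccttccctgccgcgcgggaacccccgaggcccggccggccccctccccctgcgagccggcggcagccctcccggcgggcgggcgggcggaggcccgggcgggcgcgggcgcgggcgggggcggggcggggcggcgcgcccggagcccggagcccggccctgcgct
SMAD7: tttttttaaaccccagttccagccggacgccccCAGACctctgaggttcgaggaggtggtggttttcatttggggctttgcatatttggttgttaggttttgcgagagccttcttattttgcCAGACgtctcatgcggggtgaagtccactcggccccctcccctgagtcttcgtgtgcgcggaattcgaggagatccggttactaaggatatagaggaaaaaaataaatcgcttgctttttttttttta
SKIL: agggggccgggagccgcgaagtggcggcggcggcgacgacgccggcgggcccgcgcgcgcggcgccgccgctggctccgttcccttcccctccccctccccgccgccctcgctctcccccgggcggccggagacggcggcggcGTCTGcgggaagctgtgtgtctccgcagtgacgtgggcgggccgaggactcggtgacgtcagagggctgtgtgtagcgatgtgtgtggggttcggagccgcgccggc
The INHBA window was chr7:41703091-41703340 on the minus strand, the INHBB window chr2:120345886-120346135 on the plus strand, the SMAD7 window chr18:48950966-48951215 on the minus strand and the SKIL window chr3:170357465-170357714 on the plus strand. The INHBA and SMAD7 windows lay inside the gene spans of the deposited table, whose outermost transcripts start farther upstream. All 10 genes matched RefSeq promoters, 13 in all, with 3 for SMAD7 and 2 for TGFB3. On either strand the SMAD box occurred in 5 of these 13, before TGFB2, TGFB3, SMAD7 and SKIL, against 38.0% of 35116 single promoters of the same length. In the SMAD7 promoter shown it lay 217 to 213 and 128 to 124 bases before the start, in another SMAD7 promoter 193 to 189 bases before it and in the remaining one nowhere, and in SKIL 107 to 103 bases before it. The SMAD palindrome GTCTAGAC, another SMAD motif that does not contain the letters CAGAC or GTCTG, was found in 0 of the 13 promoters and in 0.182% of all promoters. The AP-1 motif TGANTCA was found in 1 of the 13, before FST, and in 6.57% of all promoters. No member carried both an AP-1 motif and a SMAD box, and a match is a description of letters, not a binding site.

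Library totals lay between 15852346 and 18701195 counts, and mitochondrial genes took 6.92% to 17.8% of them, with the highest share in anti-VEGFA replicate 2. Of 9 macrophage markers, 8 exceeded 3 counts in every library. The exception was CD68 with 0 to 5 counts, in a table where the antisense gene AC016876.1, which overlaps it, had 64 to 126. EPCAM, an epithelial marker, had 0 counts in all 12 libraries, and KRT8, KRT18 and KRT19 had at most 7. Of all 10 epithelial markers listed for AsPC-1, 3 exceeded 3 counts in every library, CLDN7 with 68 to 168, MUC1 with 28 to 65 and KRT7 with 4 to 22. Their sum was 11.4 to 14.6 CPM in control, 6.71 to 12.2 in OE-MMP28, 12.2 to 14.3 with anti-IL-8 and 12.1 to 13 with anti-VEGFA. MMP28 also had 0 counts throughout, so its overexpression in the AsPC-1 cells cannot be checked in these libraries. All 10 genes passed the filter on low counts that left 16046 genes for testing.

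Levels can be compared between genes only per length, on the deposited FPKM scale (fragments per kilobase of transcript, scaled to the library's depth). TGFB1, the ligand most associated with immune suppression, was highest of the 10, at 294 ± 17.9 FPKM in control TAMs (mean ± SD, 3 libraries, as for all such values below). INHBA followed at 78.6 ± 10.8 and SMAD7 at 29.5 ± 2.15. These levels set TGFB1, INHBA and SMAD7 apart, with no overlap between neighbours in that order. SKIL had 6.67 ± 0.986 and TGFBI 5.34 ± 0.258, and their libraries overlapped. INHBB had 1.34 ± 0.220, FST 0.858 ± 0.102, TGFB3 0.601 ± 0.0375, FSTL3 0.522 ± 0.113 and TGFB2 0.252 ± 0.0775. Among these scarce transcripts, TGFB3 and FSTL3 overlapped in control TAMs, and INHBB and FST overlapped in each of the 3 OE-MMP28 groups. INHBA, the activin A subunit, was thus far more abundant than INHBB, and TGFB1 far more abundant than TGFB2 and TGFB3.

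**Figure D1:**
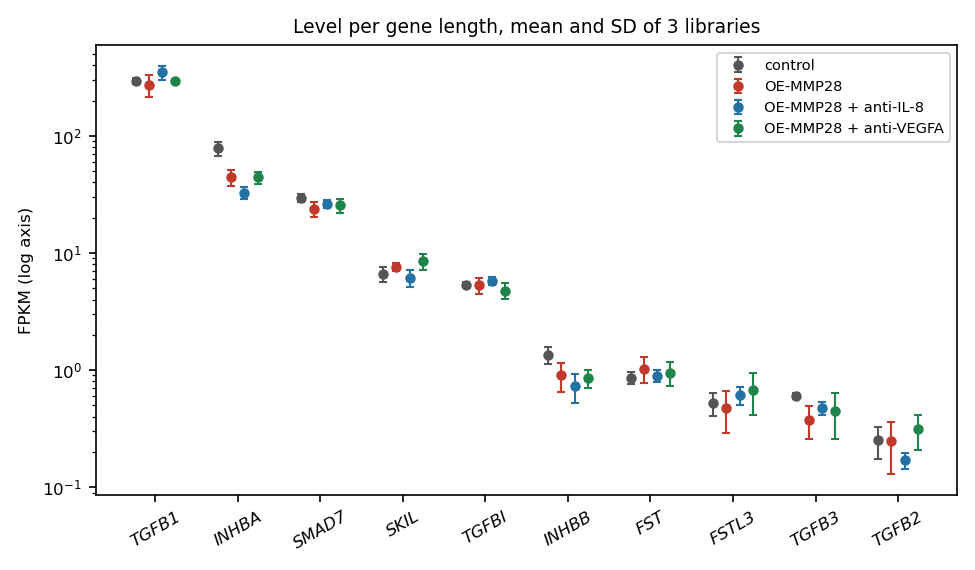
Mean FPKM (log axis) of the 10 genes in the 4 groups, ordered by their mean over all libraries, with bars for the SD of 3 libraries. TGFB1 lies highest in every group, and the INHBA control mean of 78.6 FPKM stands clear of the 3 other groups.

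INHBA (ENSG00000122641, chromosome 7, 41667168 to 41705834, minus strand, GRCh38), the activin A subunit, was lower in all 3 groups with OE-MMP28 cells than in control TAMs. In TMM-scaled CPM, that is counts scaled to equal library totals with edgeR's TMM factors, the control libraries had 594.6, 617.9 and 768.5, from 10094 to 12999 counts. OE-MMP28 libraries had 359.7, 436 and 322.4 CPM. With anti-IL-8 the values were 237.1, 302.8 and 273 CPM, and with anti-VEGFA they were 400.8, 319.5 and 395. Every control library lay above every other library, and the anti-IL-8 libraries lay below all others. Relative to the control mean of 660 ± 94.4 CPM, INHBA stood at 56.4% in OE-MMP28, at 41.0% in the anti-IL-8 group and at 56.3% in the anti-VEGFA group.

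By the quasi-likelihood test of edgeR, adjusted by Benjamini-Hochberg over all 16046 genes, INHBA fell in OE-MMP28 against control by 0.83 on the log2 scale (SE 0.15, adjusted p = 0.0030). It fell by 1.29 (SE 0.15, adjusted p = 2.4e-05) with anti-IL-8 and by 0.83 (SE 0.15, adjusted p = 0.0021) with anti-VEGFA against the same control libraries. The 3 differences share those control libraries and are not independent of each other. Without control replicate 3, the highest INHBA library, they were -0.70, -1.16 and -0.71, and all passed the threshold. With the mitochondrial share as a covariate, added after values had been seen, they were -0.78, -1.26 and -0.77, and all passed it too.

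Against OE-MMP28 itself, neither antibody brought INHBA toward the control level. With anti-IL-8 the log2 fold change was -0.46 (SE 0.15, unadjusted p = 0.0072, adjusted p = 0.075), so the difference missed the adjusted threshold although the 3 anti-IL-8 libraries lay below the 3 OE-MMP28 libraries. Its adjusted p ranged from 0.018, without OE-MMP28 replicate 3, to 0.34, without OE-MMP28 replicate 2. With anti-VEGFA the log2 fold change was near 0 (-0.0030, SE 0.15, adjusted p = 0.99) and the libraries overlapped. Set against each other, the anti-VEGFA libraries were all higher than the anti-IL-8 libraries, by 0.46 (SE 0.15, adjusted p = 0.19).

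The summed CPM of the 9 macrophage markers was 2038 to 2313 in control, 2195 to 3496 in OE-MMP28, 2889 to 3582 with anti-IL-8 and 2787 to 2962 with anti-VEGFA. In both antibody groups, where INHBA was lower, this sum was thus higher than in control. CD14 alone had 649 to 1769 CPM over the libraries, so the sum is weighted to that gene and does not give the direction of each marker. The 5 immature myeloid markers summed to 60.2 to 74.6 CPM in control and 93.9 to 114 with anti-IL-8. With anti-VEGFA they summed to 80.8 to 107 CPM and in OE-MMP28 to 47.9 to 113, and MPO, a granule enzyme of myeloid progenitors, had 0 to 20 counts per library. The part of these shifts in the INHBA result was not tested, and in bulk RNA fewer cells with a transcript cannot be told apart from less of it per cell. The antisense gene INHBA-AS1 overlaps INHBA and had 8 to 39 counts, and without strand its reads cannot be separated from those of INHBA.

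**Figure D2:**
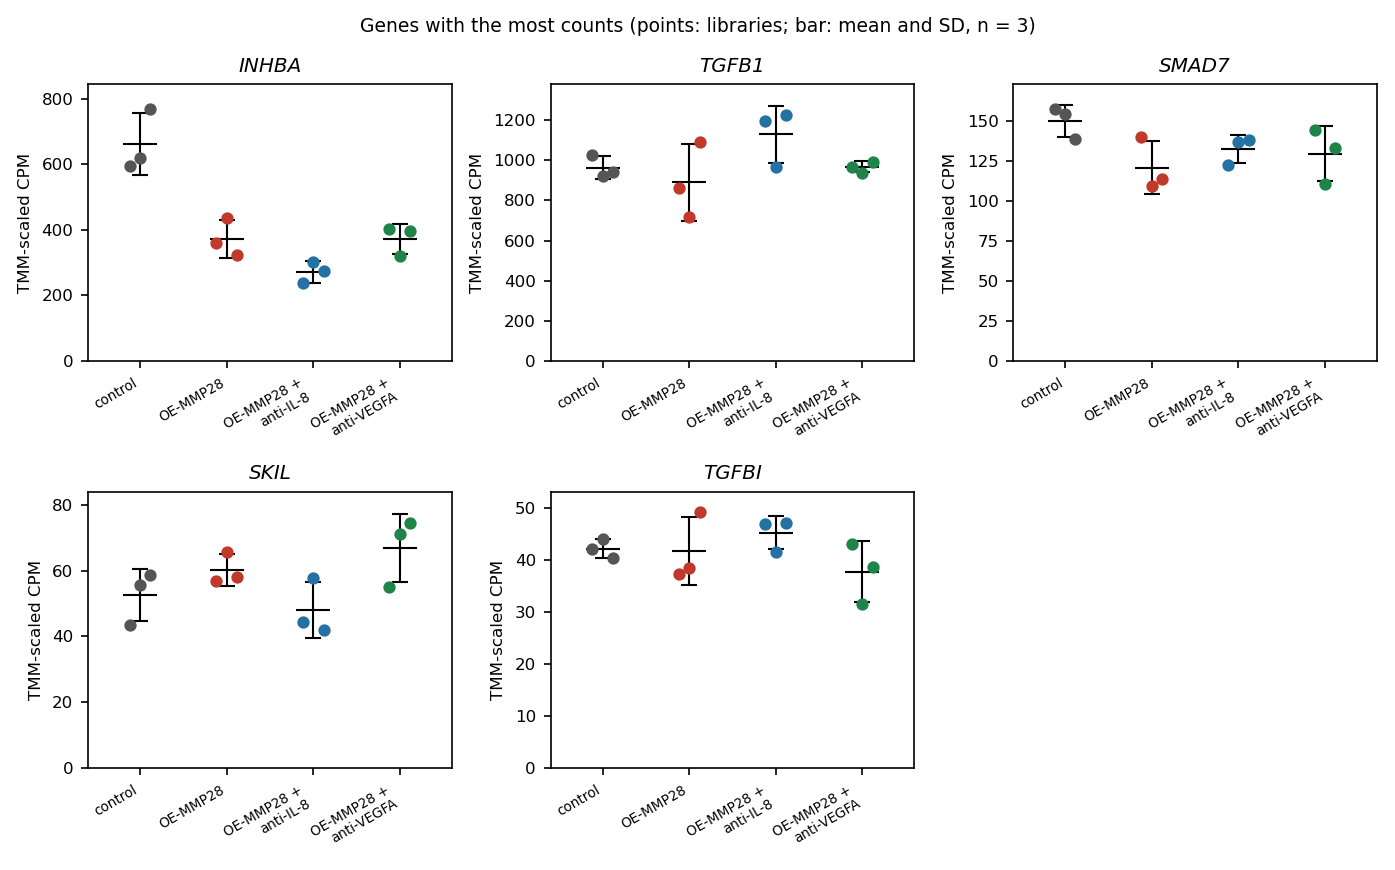
TMM-scaled CPM of the 5 genes with the most counts, for each library (points) with the mean and SD of 3 libraries (bars), in the 4 groups. In INHBA the 3 control libraries, at 594.6 to 768.5 CPM, sit above the 9 others, whereas TGFB1, SMAD7, SKIL and TGFBI overlap between control and OE-MMP28.

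INHBB (ENSG00000163083, chromosome 2, 120346143 to 120351808, plus strand), the subunit of activin B, was also lower in the OE-MMP28 groups, at a far lower level. Control libraries had 5.12, 3.75 and 4.20 CPM, from 65 to 87 counts. The OE-MMP28 libraries had 3.35, 1.98 and 3.43 CPM, the anti-IL-8 libraries 2.96, 1.66 and 2.40, and the anti-VEGFA libraries 3.32, 2.41 and 2.56. As in INHBA, no library of an OE-MMP28 group reached the lowest control library. INHBB fell past the adjusted threshold with anti-IL-8, to 53.6% of control (log2 fold change -0.87, SE 0.26, adjusted p = 0.028). The values for OE-MMP28 and anti-VEGFA against control were -0.56 (SE 0.26, adjusted p = 0.32) and -0.64 (SE 0.26, adjusted p = 0.12). Compared directly, INHBB with anti-IL-8 against OE-MMP28 gave -0.31 (SE 0.27, adjusted p = 0.45). The anti-IL-8 call rests on 28 to 46 counts per library and was lost without control replicate 1, 2 or 3 or anti-IL-8 replicate 2 or 3, with adjusted p between 0.052 and 0.10 there and 0.0047 to 0.10 over all alternatives.

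The antagonists that bind activin did not move with its subunits past any threshold. FST (ENSG00000134363, chromosome 5, 53480409 to 53487134, plus strand), which encodes follistatin, had 2.89, 2.54 and 2.31 CPM in control and 2.42, 2.92 and 3.93 in OE-MMP28. The anti-IL-8 libraries had 2.89, 2.84 and 2.27 CPM, and the anti-VEGFA libraries 2.55, 3.61 and 2.40. All 4 groups overlapped, with log2 fold changes against control of 0.25, 0.05 and 0.14 and an SE of 0.24 to 0.25 each. FSTL3 (ENSG00000070404, chromosome 19, 676365 to 683399, plus strand), a secreted relative of follistatin, had 1.30 to 2.01 CPM in control, 0.818 to 1.81 in OE-MMP28, 1.49 to 2.19 with anti-IL-8 and 1.21 to 2.82 with anti-VEGFA. These ranges also overlapped, and with 14 to 53 counts per library the SE of its log2 fold changes was 0.33 to 0.34. Small changes in FSTL3 could thus have been missed, and the size that could be detected was not tested.

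The balance of ligand to antagonist transcripts followed INHBA, its numerator, while the sum of the antagonists stayed between 1.24 and 1.89 FPKM. INHBA FPKM divided by the sum of FST and FSTL3 FPKM was 51.4, 54.6 and 64.6 in control libraries. It was 30.9, 42.0 and 20.3 in OE-MMP28, 17.8, 21.8 and 26.3 in anti-IL-8 libraries, and 30.3, 23.9 and 27.6 in anti-VEGFA libraries. Control libraries lay above all others, which restates the INHBA values and is not a separate observation, and the other 3 groups overlapped with one another. The mean ratio was 56.9 ± 6.92 in control, 31.1 ± 10.9 in OE-MMP28, 22.0 ± 4.25 in anti-IL-8 libraries and 27.2 ± 3.21 in anti-VEGFA libraries. It is given as a description of transcripts, with no test.

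TGFB1 (ENSG00000105329, chromosome 19, 41301587 to 41353911, minus strand) showed no called difference. Control libraries had 1027, 922.5 and 941.8 CPM, and OE-MMP28 libraries 861.9, 715.2 and 1092. With anti-IL-8 the values were 1195, 966.5 and 1227 CPM, and with anti-VEGFA 968.4, 939.3 and 993.9. OE-MMP28 spread on both sides of control, and 2 of the 3 anti-IL-8 libraries exceeded every other library. The largest TGFB1 difference was between anti-IL-8 and OE-MMP28, at 0.34 (SE 0.15, unadjusted p = 0.035, adjusted p = 0.14). Without OE-MMP28 replicate 3, the highest of its group, that difference was 0.53 with an adjusted p of 0.014, and over all alternatives the adjusted p ranged from 0.014 to 0.52. Against control TGFB1 gave -0.12 in OE-MMP28, 0.23 in anti-IL-8 libraries and 0.01 in anti-VEGFA libraries (SE 0.15 each). HNRNPUL1, CCDC97 and TMEM91 overlap TGFB1 on the other strand, with at most 3863, 583 and 246 counts.

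TGFB2 (ENSG00000092969, chromosome 1, 218346235 to 218444619, plus strand) and TGFB3 (ENSG00000119699, chromosome 14, 75958099 to 75982991, minus strand), the other ligands of the TGF-β receptors, were scarce. TGFB3 had 3.18, 2.83 and 2.96 CPM in control and 1.26, 2.45 and 1.87 in OE-MMP28, so those groups did not overlap. With anti-IL-8 it had 2.25, 2.13 and 2.66 CPM, also below every control library, and with anti-VEGFA 2.43, 1.21 and 3.09. The TGFB3 difference between OE-MMP28 and control was -0.65 (SE 0.30, unadjusted p = 0.043, adjusted p = 0.32), which missed the adjusted threshold. IFT43 overlaps TGFB3 on the other strand with 59 to 106 counts per library, more than the 19 to 58 of TGFB3 itself. TGFB2 had 10 to 38 counts per library, with 0.865 to 1.65 CPM in control, 0.624 to 1.81 in OE-MMP28, 0.713 to 0.964 with anti-IL-8 and 1.01 to 2.02 with anti-VEGFA. The anti-VEGFA libraries of TGFB2 lay above those with anti-IL-8 (0.82, SE 0.38, unadjusted p = 0.044, adjusted p = 0.32), and all other pairs of groups overlapped.

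**Figure D3:**
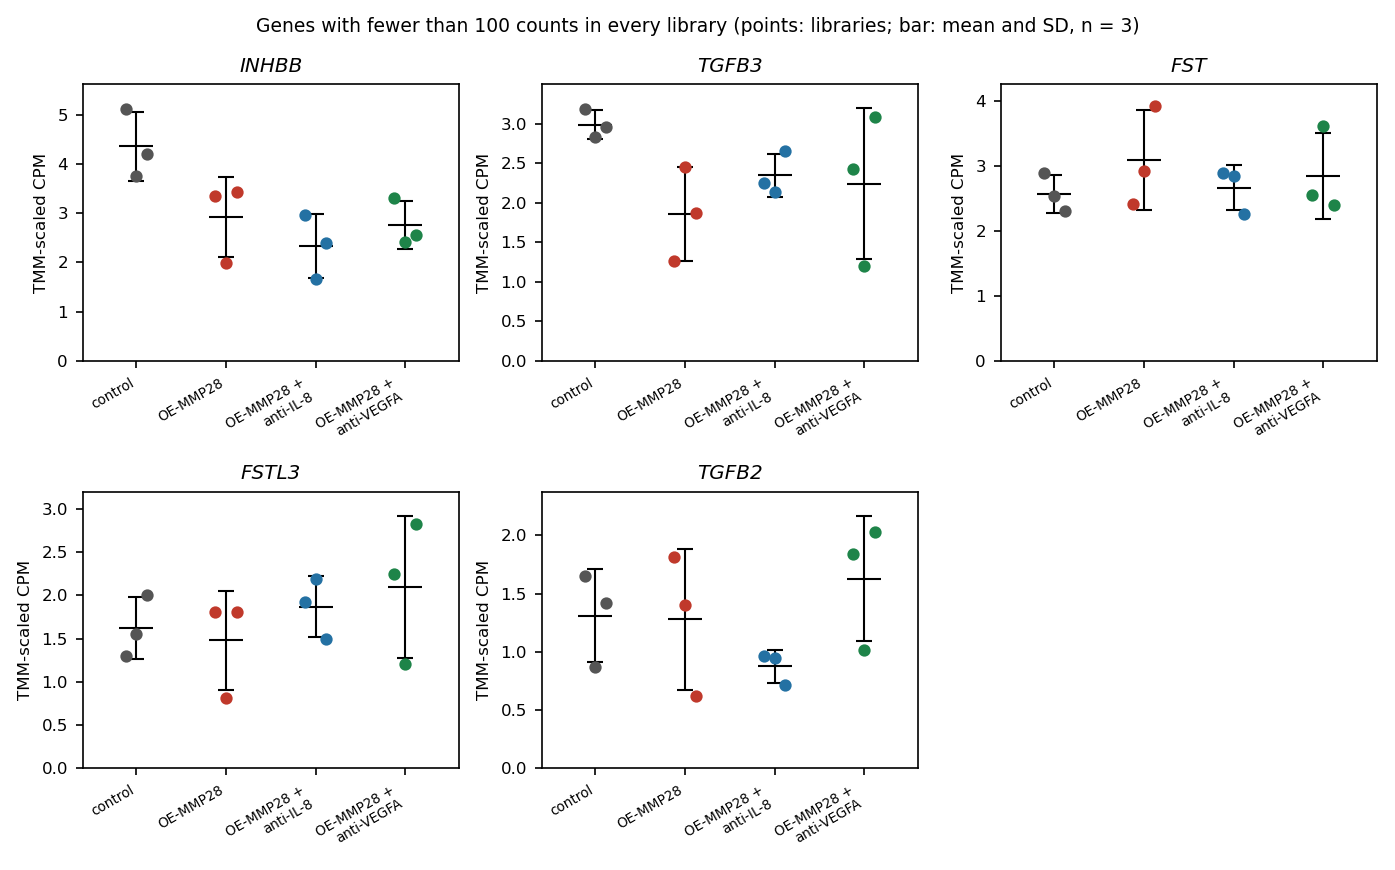
TMM-scaled CPM of the 5 genes with fewer than 100 counts in every library, for each library (points) with the mean and SD of 3 libraries (bars), in the 4 groups. INHBB at 3.75 to 5.12 CPM and TGFB3 at 2.83 to 3.18 CPM have their 3 control libraries above those of OE-MMP28, while FST, FSTL3 and TGFB2 overlap there.

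TGFBI (ENSG00000120708, chromosome 5, 136028895 to 136063818, plus strand), a secreted matrix protein that TGF-β induces in many cells, had no called difference. It had 40.3 to 44.1 CPM in control, 37.3 to 49.2 in OE-MMP28, 41.5 to 47.2 with anti-IL-8 and 31.4 to 43.0 with anti-VEGFA. All groups with the exception of anti-IL-8 and anti-VEGFA were separated by 0.16 or less on the log2 scale (SE 0.14), and for that pair the value was -0.26 (SE 0.14, adjusted p = 0.39). The lowest TGFBI library was anti-VEGFA replicate 2, which also had the highest mitochondrial share.

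SMAD7 (ENSG00000101665, chromosome 18, 48919853 to 48952052, minus strand), the inhibitory SMAD that blocks the type I receptors, had 157.4, 154.2 and 138.5 CPM in control. OE-MMP28 libraries had 139.7, 109 and 113.6 CPM. The anti-IL-8 libraries had 122.3, 136.8 and 138.1 CPM, and the anti-VEGFA libraries 144.6, 110.6 and 133.2. Control and OE-MMP28 overlapped at a single library, and the anti-IL-8 libraries lay just below the lowest control library. The difference between OE-MMP28 and control was -0.31 (SE 0.13, unadjusted p = 0.030, adjusted p = 0.28), and none of the SMAD7 differences passed the adjusted threshold.

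SKIL (ENSG00000136603, chromosome 3, 170357678 to 170396835, plus strand) encodes SnoN, a corepressor that holds SMAD target genes silent. It had 43.5, 55.5 and 58.6 CPM in control, 56.8, 65.6 and 58.2 in OE-MMP28, 44.3, 57.7 and 41.9 in anti-IL-8 libraries, and 55.0, 71.0 and 74.6 in anti-VEGFA libraries. All pairs of groups overlapped. Its largest differences set anti-VEGFA above anti-IL-8 (0.48, SE 0.16, unadjusted p = 0.0067, adjusted p = 0.18) and above control (0.35, SE 0.16, unadjusted p = 0.038, adjusted p = 0.16). SMAD7 and SKIL, both induced by SMAD signaling in other settings, had differences of opposite sign between OE-MMP28 and control (-0.31 and 0.20), neither of them called.

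**Figure D4:**
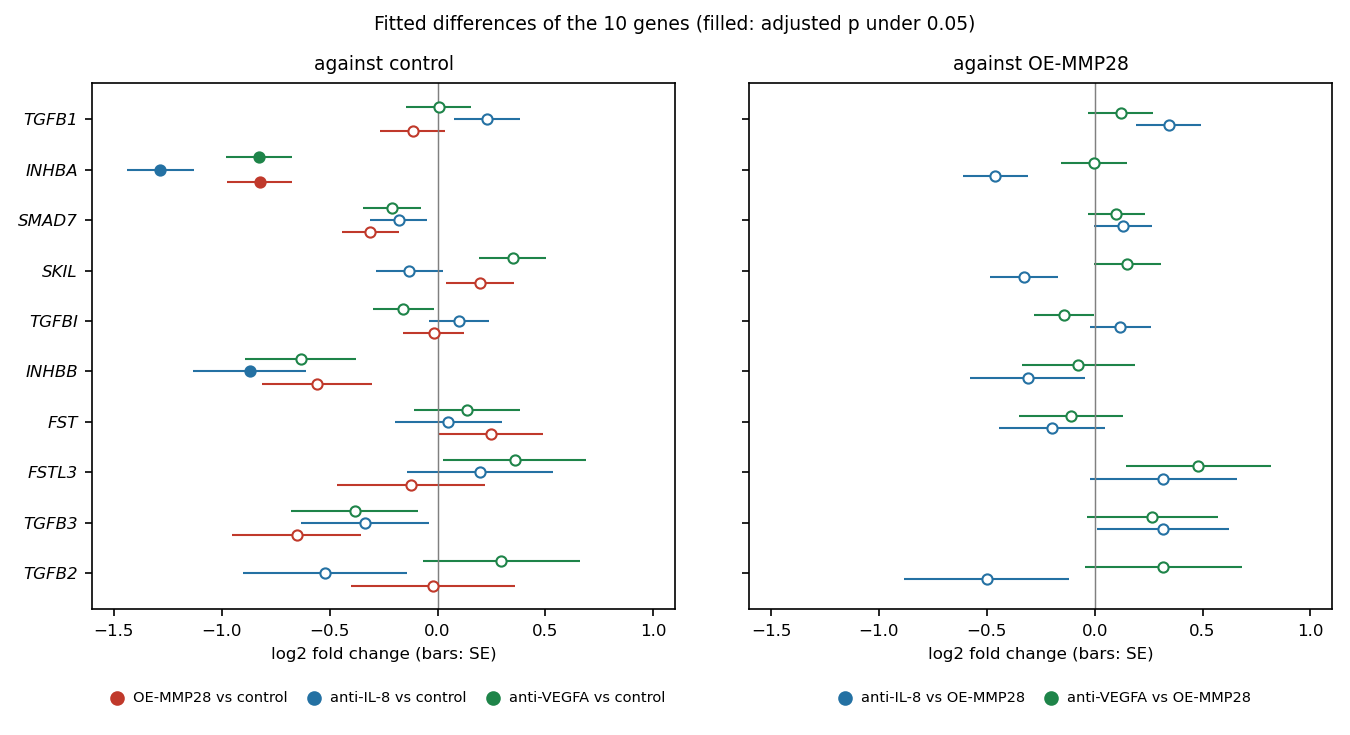
Fitted log2 fold changes (points) with their SE (bars) for the 10 genes, against control (left) and against OE-MMP28 (right), with filled points for an adjusted p under 0.05. The 4 filled points are INHBA in all 3 comparisons with control, at -0.83, -1.29 and -0.83, and INHBB with anti-IL-8 at -0.87.

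Counted over the 10 genes, 1 passed the adjusted threshold of 0.05 between OE-MMP28 and control (INHBA, lower), against 3.16% of all genes tested. At the unadjusted threshold of 0.05, which the study named for its RNA sequencing, 4 passed (INHBA, INHBB, TGFB3 and SMAD7, all lower), against 14.5%. For its sequenced AsPC-1 cells the study also required an absolute LogFC above 1. None of these 4 genes reached that here, the largest difference being that of INHBA at -0.83. With anti-IL-8 against control 2 passed the adjusted threshold (INHBA and INHBB, lower), against 20.7%, and the same number passed the unadjusted one, against 35.9%. With anti-VEGFA against control 1 passed the adjusted threshold (INHBA, lower), against 11.0%, and 3 the unadjusted one (INHBA and INHBB lower, SKIL higher), against 27.0%. The share of the 10 genes called was thus at or below that of all genes with anti-IL-8 and close to it with anti-VEGFA. Between the antibody groups and OE-MMP28, edgeR called 0 of the 10. For anti-IL-8 the background was 0% at the adjusted and 29.3% at the unadjusted threshold, where 2 of the 10 passed (INHBA lower, TGFB1 higher), and DESeq2 called 1 at the adjusted threshold (INHBA) and limma voom 0. For anti-VEGFA it was 0.343% and 18.8%, and 0 of the 10 passed even the unadjusted threshold with edgeR, DESeq2 or limma voom. Between the antibody groups edgeR, DESeq2 and limma voom called 0 of the 10, against 0.199% of all genes in edgeR, and 3 passed the unadjusted threshold in edgeR (INHBA, TGFB2 and SKIL, all higher with anti-VEGFA), against 15.0%. The median log2 fold change of the 10 genes was -0.12 in OE-MMP28, -0.16 for anti-IL-8 and -0.08 for anti-VEGFA against control, where the medians of all genes were 0.02, -0.02 and 0.00.

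Other genes of the pathway were taken from lists written with earlier results of these data known, 63 genes in all, of which 55 passed the filter on low counts. INHA, INHBC, NODAL, LEFTY2, ITGB6, BMPR1B, SNAI2 and CDKN2B did not. By edgeR, 2 of the 55 passed the adjusted threshold between OE-MMP28 and control, both lower, against 3.16% of all genes. With anti-IL-8 against control 6 were lower and 2 higher, against 20.7% of all genes, and with anti-VEGFA 3 were lower and 1 higher, against 11.0%. By edgeR the share called was close to that of all genes in OE-MMP28 and below it in both antibody groups. In these 3 comparisons DESeq2 called 3, 13 and 5 and limma voom 3, 8 and 4. The shares of all genes given here are those of edgeR, so these counts are not set against them. In the 3 comparisons among the OE-MMP28 groups, edgeR called 0 of the 55. There 18, 11 and 11 passed the unadjusted threshold for anti-IL-8, anti-VEGFA and the antibodies against each other. Of all genes 29.3%, 18.8% and 15.0% passed it. In the same order DESeq2 called 8, 3 and 1 of the 55, and its counts over the whole table are given in the closing section. By limma voom 0, 0 and 0 were called. The median log2 fold change of the 55 genes stayed between -0.15 and 0.11 in all 6 comparisons.

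Among the target genes, CYR61, a matricellular protein that also responds to YAP, fell in all 3 groups with OE-MMP28 cells. It had 32.6, 25.9 and 27.1 CPM in control and 15.7, 11.8 and 17.0 in OE-MMP28. The anti-IL-8 libraries had 13.8, 13.4 and 13.5 CPM, and the anti-VEGFA libraries 17.4, 13.6 and 18.4. Every library of the OE-MMP28 groups held less than the lowest control library, and CYR61 fell by 0.94, 1.07 and 0.79 on the log2 scale (SE 0.16 each, edgeR adjusted p = 0.0013, 2.7e-04 and 0.0043). CTGF, its close relative, had 10.6 ± 1.94 CPM in control and 10.7 ± 1.41 in OE-MMP28, and fell with anti-IL-8 to 6.13 ± 1.16 (adjusted p = 0.014). With anti-VEGFA it had 8.85 ± 2.06 CPM (adjusted p = 0.44 against control), and in edgeR the differences of CTGF with anti-IL-8 from OE-MMP28 (adjusted p = 0.063) and from anti-VEGFA (adjusted p = 0.25) were not called, while DESeq2 called the first of them (adjusted p = 0.013). The CTGF call against control was lost without control replicate 1 or 3 or anti-IL-8 replicate 1 or 2, with adjusted p up to 0.070. Of the 9 tested target genes described here, 1 fell in OE-MMP28, 2 in the anti-IL-8 group and 1 in the anti-VEGFA group against control by edgeR. None was called higher in these 3 comparisons, and of all genes edgeR called 3.16%, 20.7% and 11.0% there. DESeq2 called 1, 3 and 2, among them ID1 as higher with anti-VEGFA. With anti-VEGFA against OE-MMP28, 7 of the 9 were higher and 2 lower, with a median log2 fold change of 0.36. There edgeR called 0, 4 passed the unadjusted threshold, against 18.8% of all genes, and DESeq2 called 2, both higher. With anti-IL-8 against OE-MMP28, 5 were higher and 4 lower, with a median of 0.04. The most abundant of the target genes, the cell cycle inhibitor CDKN1A, had 654 CPM in control and 519 in OE-MMP28 (log2 fold change -0.33, SE 0.14, adjusted p = 0.27). With anti-IL-8 it had 685 CPM and with anti-VEGFA 666 (edgeR adjusted p = 0.083 and 0.19 against OE-MMP28).

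Among the other ligands, BMP2, a bone morphogenetic protein that signals through SMAD1 and SMAD5, fell from 78.4 ± 10.5 CPM in control to 46.1 ± 7.88 in OE-MMP28, 36.1 ± 5.83 in anti-IL-8 libraries and 41.9 ± 4.42 in anti-VEGFA libraries. Its log2 fold changes were -0.76, -1.12 and -0.90 (SE 0.16 each, adjusted p = 0.0074, 1.5e-04 and 0.0013), and the call in OE-MMP28 was lost without control replicate 1 (adjusted p = 0.068). It was the only one of 8 tested genes in that list that edgeR called in any comparison. GDF15, the most abundant, had 1776 CPM in control and 1687 in OE-MMP28, a difference of -0.07 (SE 0.18, adjusted p = 0.90). With anti-IL-8 it had 2467 CPM, and those libraries lay above all control and all OE-MMP28 libraries. These differences were 0.47 and 0.55 (SE 0.18 each) and missed the threshold in edgeR (adjusted p = 0.065 and 0.073). DESeq2 called 1 gene of this list higher in each of these comparisons. With anti-VEGFA GDF15 had 2034 CPM (adjusted p = 0.51 against control).

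Of 12 receptors tested, BMPR2, the type II receptor for BMPs, was the only one that edgeR called. It averaged 67.7 ± 4.20 CPM in control, 49.9 ± 8.59 in OE-MMP28, 37.7 ± 4.71 in anti-IL-8 libraries and 45.5 ± 1.28 in anti-VEGFA libraries, and fell both in the anti-IL-8 group (-0.84, SE 0.14, adjusted p = 6.4e-04) and in the anti-VEGFA group (-0.57, SE 0.14, adjusted p = 0.013). The anti-VEGFA call was lost without control replicate 2 (adjusted p = 0.075). The activin receptors ACVR1B, ACVR2A and ACVR2B and the TGF-β receptors TGFBR1 and TGFBR2 were tested and were not called by edgeR in any comparison. TGFBR1 with anti-IL-8 against OE-MMP28 had a log2 fold change of -0.41 (SE 0.12, edgeR adjusted p = 0.065), which DESeq2 called (adjusted p = 0.021). ENG, a TGF-β coreceptor and the most abundant of the list, had 133 CPM in control and 130.0 in OE-MMP28 (adjusted p = 0.96). With anti-IL-8 it had 181 CPM and with anti-VEGFA 155 (edgeR adjusted p = 0.075 and 0.44 against control).

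Of 7 SMADs tested, SMAD6, the inhibitory SMAD of the BMP branch, was the one called by edgeR and was higher. It had 14.3 ± 1.59 CPM in control, 19.0 ± 3.40 in OE-MMP28, 22.6 ± 1.08 in anti-IL-8 libraries and 21.1 ± 3.49 in anti-VEGFA libraries. SMAD6 rose both in the anti-IL-8 group (0.65, SE 0.16, adjusted p = 0.011) and in the anti-VEGFA group (0.55, SE 0.16, adjusted p = 0.035), and the call with anti-VEGFA was lost without any 1 of the 3 control libraries or without anti-VEGFA replicate 1 or 2 (adjusted p up to 0.17). Over all 22 alternatives the anti-VEGFA call was lost in 9. With anti-IL-8 the SMAD6 call was lost without control replicate 2 (adjusted p = 0.064). SMAD2, which carries the activin signal, had the most counts of the list, though not the highest level per length (2.11 FPKM in control against 3.12 for SMAD5). It had 77.7 CPM in control and 87.3 in OE-MMP28 (0.17, SE 0.12, adjusted p = 0.57).

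Of 10 genes for latency and activation of TGF-β, edgeR called 3, all with anti-IL-8 against control, where it called 20.7% of all genes. DESeq2 called 4 there and 1 to 2 in 3 other comparisons, and limma voom called 3 there, counts not set against a share of all genes by the same tool. DESeq2 and limma voom each called 1 gene of the list lower in OE-MMP28 against control. In edgeR LRRC32 missed the threshold in that comparison, with 18.7 CPM in control and 12.5 in OE-MMP28 (-0.58, SE 0.16, adjusted p = 0.055). Its OE-MMP28 libraries all lay below its control libraries. NRROS, which holds latent TGF-β1 on the surface of myeloid cells, rose from 104 ± 0.714 to 165 ± 22.0 CPM (0.66, SE 0.15, adjusted p = 0.0069). THBS1, which can release active TGF-β, fell from 2.96 ± 0.537 to 1.04 ± 0.139 CPM (-1.41, SE 0.28, adjusted p = 0.0035), and ITGB8, an integrin subunit that activates it, from 7.14 ± 1.08 to 4.55 ± 0.241 (-0.64, SE 0.20, adjusted p = 0.032). THBS1 rests on 14 to 59 counts per library, and the ITGB8 call was lost without control replicate 2 or 3 or without any 1 of the anti-IL-8 libraries (adjusted p up to 0.12). Over all 22 alternatives the ITGB8 call was lost in 7. FURIN, the protease that cleaves TGF-β and activin precursors, was the most abundant and was not called by edgeR in any comparison. It had 227 CPM in control and 231 in OE-MMP28 (adjusted p = 0.97). The anti-IL-8 libraries averaged 307 CPM (0.43 against control, SE 0.16, edgeR adjusted p = 0.066) and overlapped control. The anti-VEGFA libraries averaged 300 CPM and all lay above control (0.40, SE 0.16, edgeR adjusted p = 0.12). Every library of both antibody groups exceeded every OE-MMP28 library (0.41 and 0.37, edgeR adjusted p = 0.11 and 0.23). Of 9 negative regulators, edgeR called 0 in each of the 6 comparisons, with 0 to 2 at the unadjusted threshold. TGIF1, which had the most counts of them over the 12 libraries but less FPKM in control than SKI (8.65 against 12.2), had 71.9 CPM in control and 77.3 in OE-MMP28 (adjusted p = 0.76).

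**Figure D5:**
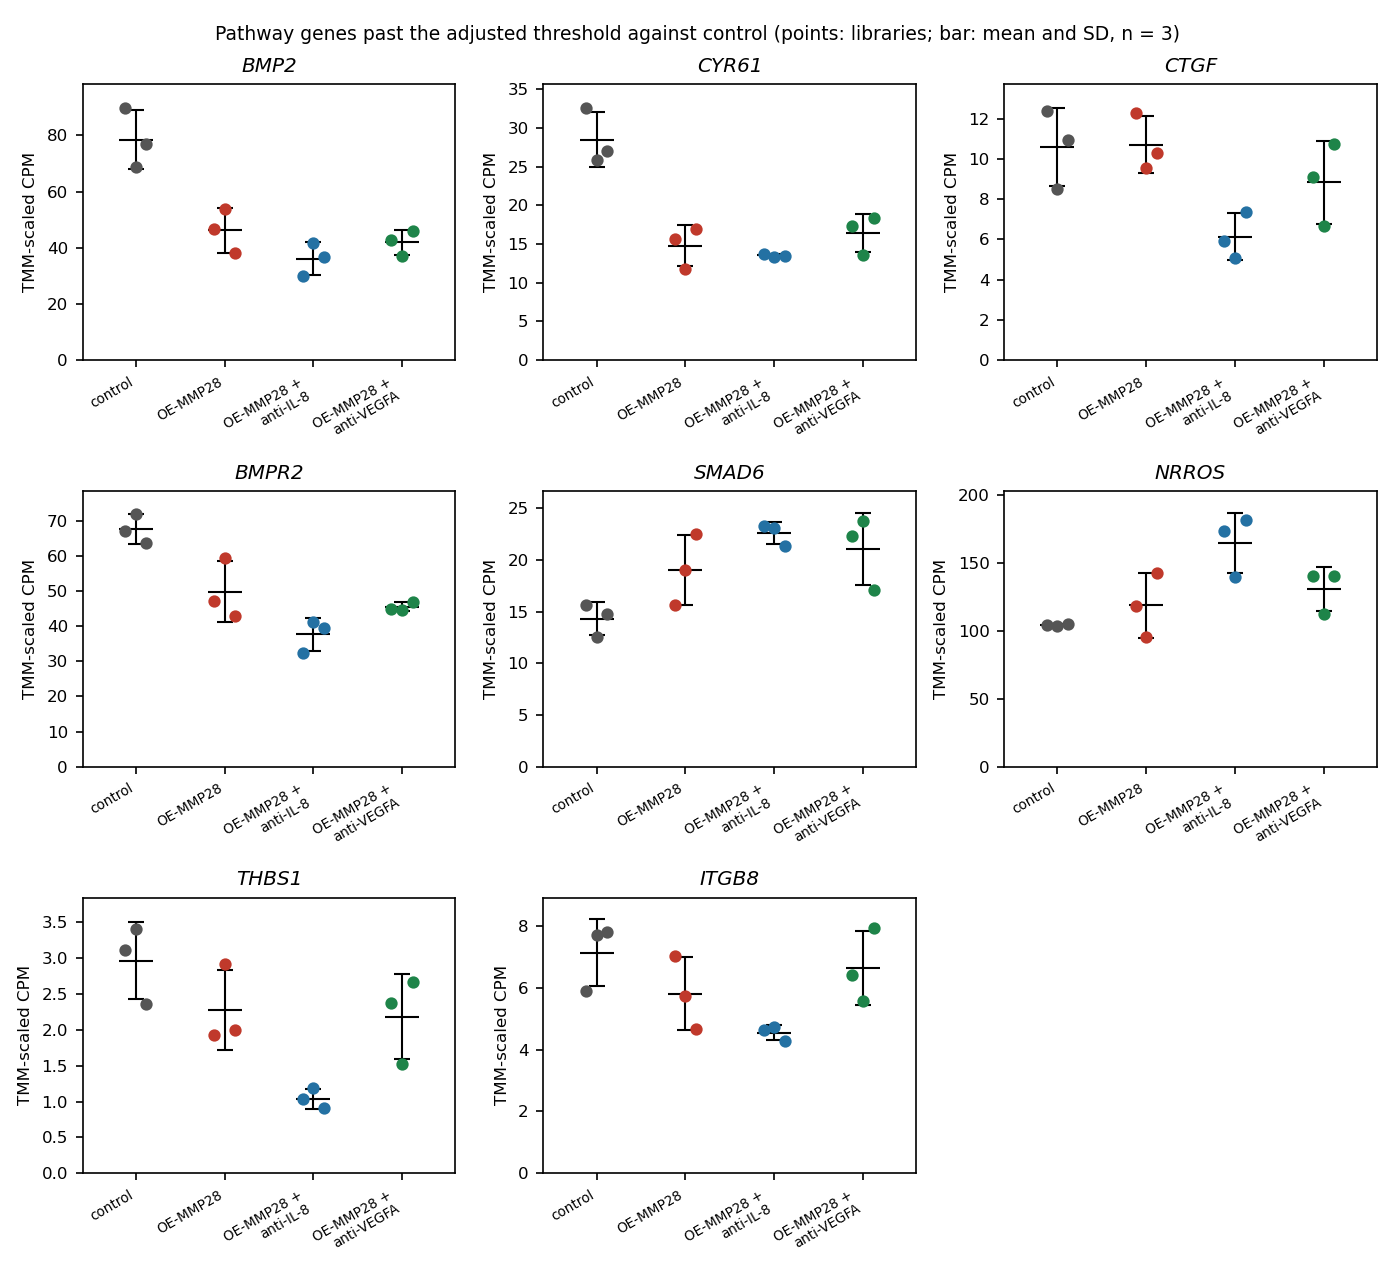
TMM-scaled CPM of 8 pathway genes past the adjusted threshold in at least 1 comparison with control, for each library (points) with the mean and SD of 3 libraries (bars). In CYR61 the control libraries lie at 25.9 to 32.6 CPM and all others at 18.4 or lower, and SMAD6 and NRROS are the genes of the 8 that were called higher than control.

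The genes whose pattern over the 12 libraries was most like that of each member are given as a description, over 10549 protein-coding candidates with a mean of at least 50 counts. Likeness was measured by Pearson's r of log2 CPM, and the 12 libraries share 4 groups, so no p is given. INHBA was followed by PLAGL1, EDIL3 and ZNF41 (r of 0.96 to 0.97), and INHBB by SYTL3, ENTPD7 and CYR61 (r of 0.86 to 0.91). TGFB1 was followed by SIL1, LMAN2 and ERGIC3 (0.95 to 0.97), TGFB2 by PHTF1, SAMD4A and TNFRSF9 (0.87 to 0.94), and TGFB3 by TINF2, TCP11L1 and SERPINB7 (0.81 to 0.86). FST was nearest to IFT43, RGS10 and TPT1 (0.84 each) and FSTL3 to SPIRE2, ZFYVE27 and KLHL17 (0.78 to 0.81). TGFBI was nearest to PCCB, PRPSAP1 and ATG7 (0.87 to 0.91), SMAD7 to C11orf21, ABTB2 and AP5B1 (0.91 to 0.96), and SKIL to CCDC82, DNTTIP2 and TAF1D (0.92 to 0.94). No member was given as the neighbour of another, since members were left out of the candidates.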

How the data were processed

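Total RNA of 12 THP-1 libraries was sequenced. The deposited counts and FPKM values were made by the authors. The submitters' processing notes name HISAT2 2.0.5 and featureCounts 1.5.0-p3, and whether strand was used is not given in the sources used here. The authors' own fold changes and p-values are also deposited and were not used. Counts were analysed in R 4.3.3 with edgeR 4.0.16 over all 4 groups (filterByExpr, TMM, quasi-likelihood test, prior count 2 for fold changes, Benjamini-Hochberg at 0.05). Alternatives were DESeq2 1.42.0, limma 3.58.1 with voom or on log2(FPKM + 1 or 0.1), other filters and scaling, 2-group fits, the replicate number as a block, and each library left out. Methods were tested on simulated data. The members and lists were chosen with earlier results of these data known. A further target gene was left out of the lists and their counts and is not reported here. Every member was named, with each list's called genes and its most abundant tested gene, and the 3 nearest patterns per member. Figures were drawn with matplotlib 3.10.9.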

Additional observations from a re-analysis of the deposited data

How the results depend on the processing

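Counts are of the 10 genes past the adjusted threshold. Between OE-MMP28 and control the count was 1 and stayed so except at the unadjusted threshold (4), and with anti-VEGFA against control it was 1 and there 3. With each library left out in turn it was 1 to 1 in both, 1 to 2 with anti-IL-8 against control, 0 to 2 with anti-IL-8 against OE-MMP28, and 0 to 0 in the other comparisons. The 2 without OE-MMP28 replicate 3 were INHBA (-0.54, adjusted p 0.018) and TGFB1 (0.53, 0.014). With anti-IL-8 against OE-MMP28 the count of 0 was 2 at the unadjusted threshold and 1 (INHBA) with DESeq2 (adjusted p 0.028), with no filter on low counts (0.040) and with the mitochondrial share as a covariate (0.041), an alternative chosen after seeing the data. With anti-VEGFA against anti-IL-8 it was 0, and 3 at the unadjusted threshold. INHBA with anti-VEGFA against OE-MMP28, -0.0030, turned to 0 or above with library totals (0.0040), voom (0), at least 10 counts in every library (0.01), the replicate block (0) and the mitochondrial covariate (0.0090), and ranged from -0.10 to 0.12 with each library left out. Over all members 48 of 1320 values changed sign, in 17 of 60 comparisons and in 0 called ones.

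Genes called over the whole table with anti-IL-8 against OE-MMP28 were 0, but 2259 with DESeq2, 1438 with no filter, 1739 with the mitochondrial covariate, 795 with the replicate block and 1 with log2(FPKM + 0.1). With anti-VEGFA against OE-MMP28 they were 55, but 429 with DESeq2, 400 with no filter, 310 with the covariate and 1 in the fit of those 2 groups. Between the antibodies they were 32, but 252, 277, 176 and 17 in that order, 53 with log2(FPKM + 1) and 57 with at least 10 counts in every library. With anti-IL-8 against control they were 3317, but 6039 in the fit of those 2 groups. With each library left out in turn, they ranged from 0 to 4125 and 8 to 1402 for anti-IL-8 and anti-VEGFA against OE-MMP28 (highest without OE-MMP28 replicate 3), 3 to 112 between the antibodies, and 295 to 641, 1312 to 4309 and 662 to 2582 for OE-MMP28, anti-IL-8 and anti-VEGFA against control. The causes were not tested.

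Samples with the same replicate number did not deviate together: 4 of 18 pairs had a correlation over 0.1 (-0.18 to 0.28), and 13 of 36 correlated best with their own number. With the replicate block the count of the 10 genes called was unchanged in all 6 comparisons, at 0 with anti-IL-8 against OE-MMP28, and SMAD6 with anti-VEGFA against control lost its call (adjusted p 0.051).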
